A study of Mus musculus with 6 samples.

Results

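Oncostatin M and its relatives in the interleukin 6 (IL-6) family were followed through 8 genes: the ligands Osm, Lif and Il6, the receptor chains Osmr, Il6ra and Il6st, the transcription factor Stat3 and the feedback inhibitor Socs3. They were taken by gene symbol as parts of 1 signalling chain, and they are 8 of the 51361 genes in the count table, of which 31242 had a count in at least 1 library. Of the 8 genes, 7 passed the filter on low counts and were among the 16657 genes tested; Osmr did not. RNA was sequenced from regulatory T cells (Tregs) sorted as CD4+CD25+Foxp3+, 500 to 1000 cells per library, with 2 libraries in each of 3 groups. The tMCAO brain group held cells from the brain 14 days after transient middle cerebral artery occlusion (tMCAO) for 60 min, a mouse model of ischemic stroke. The tMCAO blood group held cells from the blood of mice after the same operation, and the sham blood group held cells from the blood of sham-operated mice. Mice of all 3 groups were 9-week-old C57BL/6N males that carried Tg(Foxp3-DTR/EGFP)23.2Spar, a transgene in which Foxp3 control elements drive the diphtheria toxin receptor with a green fluorescent protein. The sham-operated mice thus carried it too. The labels do not say that libraries of a group came from separate mice, so the p-values measure only the spread between libraries, which may be technical. In bulk RNA, fewer cells of a type and less RNA per cell cannot be told apart.

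Cytokines of this family bind a receptor chain of their own that pairs with gp130, the shared signalling chain encoded by Il6st. The receptor activates Janus kinases, which phosphorylate STAT3, and STAT3 switches on Socs3, whose protein then blocks gp130 signalling. Oncostatin M is made by myeloid cells and by activated T cells and acts in the mouse mainly through the receptor chain encoded by Osmr. IL-6 with STAT3 is known to steer CD4 T cells towards the Th17 fate and away from the Treg fate.

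The promoters are shown because Socs3 is the textbook STAT3 target and because Il6 and Lif are the ligands of the set with an entry. RefSeq promoters on GRCm38.p6 matched 7 of the 8 genes, Osm being the one without a match. The 250 bases before each start were searched on both strands for the STAT motif TTCNNNGAA, the AP-1 motif TGANTCA and the kappaB motif. Capitals mark the matches, and each sequence reads 5′ to 3′ on the strand of its gene.
Socs3, chr11:117969367-117969616, minus strand: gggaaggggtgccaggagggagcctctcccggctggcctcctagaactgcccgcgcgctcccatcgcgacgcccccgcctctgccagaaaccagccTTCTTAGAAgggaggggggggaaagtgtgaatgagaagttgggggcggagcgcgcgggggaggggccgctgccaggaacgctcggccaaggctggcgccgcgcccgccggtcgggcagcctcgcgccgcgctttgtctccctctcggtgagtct
Il6, chr5:30012864-30013113, plus strand: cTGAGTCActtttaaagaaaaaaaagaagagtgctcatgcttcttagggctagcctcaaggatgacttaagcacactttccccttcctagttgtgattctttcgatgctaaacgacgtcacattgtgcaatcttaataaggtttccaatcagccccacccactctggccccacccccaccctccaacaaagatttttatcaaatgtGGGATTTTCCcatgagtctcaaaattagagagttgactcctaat
Lif, chr11:4257318-4257567, plus strand: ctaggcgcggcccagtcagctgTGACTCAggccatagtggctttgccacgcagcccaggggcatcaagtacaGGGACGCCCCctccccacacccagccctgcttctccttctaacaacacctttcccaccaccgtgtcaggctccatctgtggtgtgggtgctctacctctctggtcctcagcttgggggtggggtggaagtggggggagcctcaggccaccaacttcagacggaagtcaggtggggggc
The Socs3 window held 1 STAT match, which began 154 bases before the RefSeq start. By GENCODE the 5′ end of Socs3 is at 117970047, so this window lies within the GENCODE gene. The Il6 window held an AP-1 match 249 bases and a kappaB match 44 bases before the start. The Lif window held an AP-1 match 228 bases and a kappaB match 178 bases before the start. The windows of Osmr, Il6ra, Il6st and Stat3 held no match to these letters. Among 32851 promoters of the same length, 7.02% held the STAT motif, 6.75% the AP-1 motif and 7.25% the kappaB motif, so single matches of this kind are not rare.

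The libraries held 14348179 to 24460894 counts, so that 1 count was worth between 0.0408 and 0.0704 CPM, a gene's count scaled to the total of its library (totals adjusted by edgeR's TMM method). Markers went partly against the sort label. Foxp3, the gene that defines Tregs, was at 0.726 and 19.6 CPM in brain, whereas blood had 0.538 and 5.18 CPM after tMCAO and 50.1 and 60.7 CPM after sham surgery. The 16 T cell identity genes held 0.0300% and 0.151% of counts in brain, whereas blood had 0.0671% and 0.449% after tMCAO and 0.893% and 0.861% after sham surgery. Library 1 of tMCAO brain and library 1 of tMCAO blood, both with Foxp3 under 1 CPM, stood apart by these 2 measures. They did so less by 7 Treg genes, Foxp3 among them. Those held 0.05545% and 0.0732% of counts in brain, 0.100% and 0.130% in blood after tMCAO, and 0.255% and 0.256% after sham surgery. Every tMCAO library was thus below both sham blood libraries. Log2 changes of several genes are given with and without the 2 libraries of low Foxp3 below. The 2 libraries of a group differed by more than sampling noise in every group, so none was counted as a repeat.

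Osm and Socs3 were higher in brain than in blood after tMCAO, Il6ra, Il6st and Stat3 differed by less, and Osmr, Lif and Il6 were close to 0 in several libraries. Adjusted p-values below come from edgeR's quasi-likelihood test with Benjamini-Hochberg adjustment over all 16657 genes, unless another tool is named, and a gene was called under 0.05. In tMCAO brain against tMCAO blood, 2 of the 7 tested genes were called, both of them higher, against 4.9% of all genes tested (3.53% higher and 1.37% lower). In tMCAO blood against sham blood, 0 of the 7 passed by edgeR, against 7.48% of all genes (4.33% higher and 3.15% lower). Of them 1, Socs3, was below an unadjusted p of 0.05, DESeq2 called 1 and limma-voom 0. In tMCAO brain against sham blood, 1 of the 7 passed, Osm, as higher, against 10.6% of all genes (8.01% higher and 2.62% lower). These shares of all genes stand beside every count of edgeR calls below that uses TMM scaling and all libraries. The median log2 change over the 7 genes was 1.08, -0.41 and 1.08 in these 3 comparisons, beside 0.06, 0.11 and 0.09 over all genes tested. The comparisons share libraries pairwise and are not independent of each other.

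**Figure D1:**
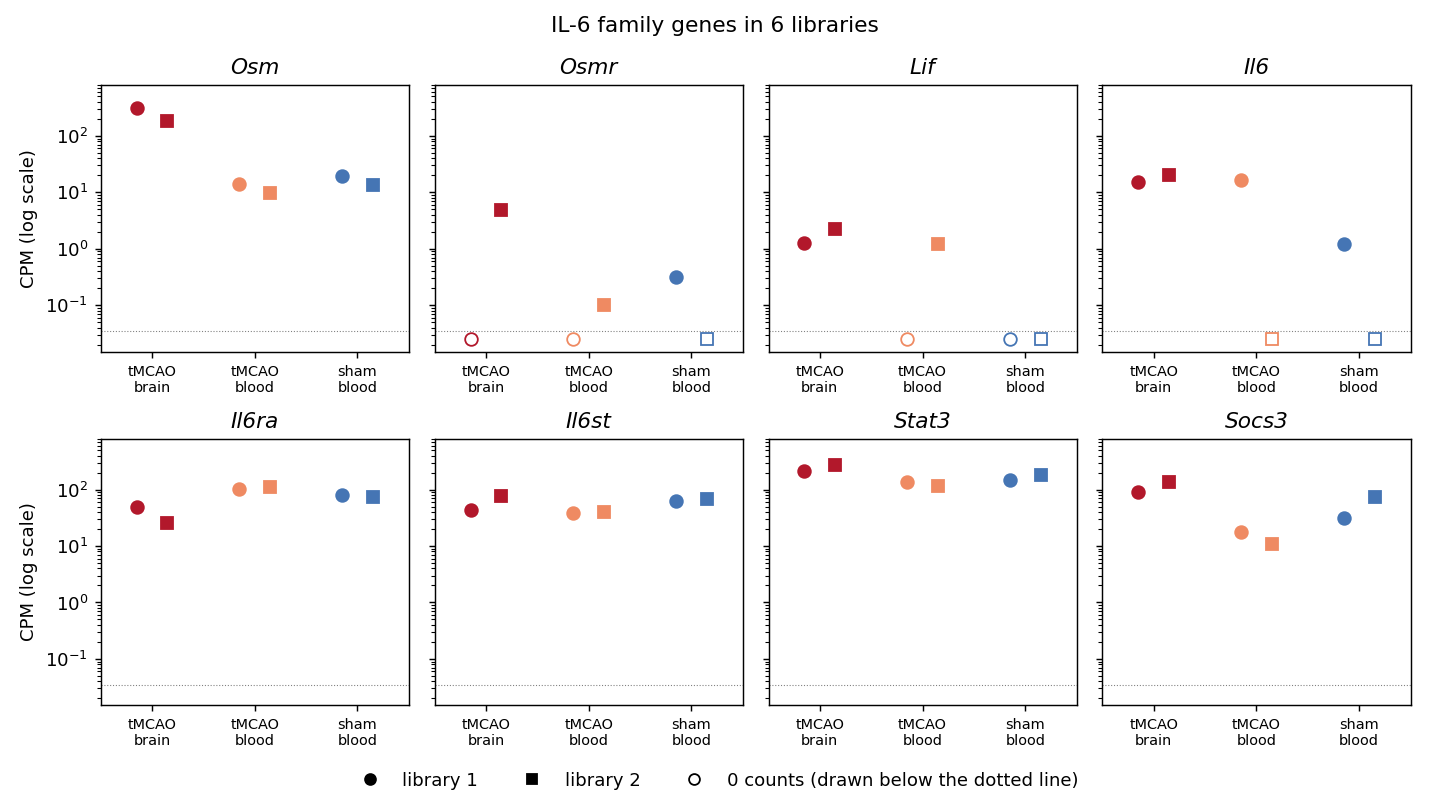
CPM of the 8 genes in each of the 6 libraries, on a log scale, with 1 panel per gene and circles for library 1, squares for library 2. Open symbols below the dotted line stand for 0 counts. Both tMCAO brain libraries sit above all blood libraries for Osm, at 316 and 183 CPM, and below all of them for Il6ra, at 48.6 and 25.4 CPM.

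Osm encodes oncostatin M and lies on chromosome 11 from 4236420 to 4241026, plus strand (GRCm38, GENCODE M21, as for all genes below). Its level was 316 and 183 CPM in the brain libraries, against 14.3 and 9.82 CPM in blood after tMCAO and 19.6 and 13.7 CPM in blood after sham surgery. Both brain libraries were above all 4 blood libraries, and the blood groups overlapped. Of all tested genes, 31.4% had both brain libraries above both tMCAO blood libraries and 34.9% had them above both sham blood libraries. These shares apply to every gene below with such a separation. The means of Osm were 249 ± 94.3 CPM in brain, whereas blood had 12.1 ± 3.18 CPM after tMCAO and 16.6 ± 4.14 CPM after sham surgery (SD, n = 2 each).

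Osm rose 20.7-fold in tMCAO brain against tMCAO blood (log2 4.37 ± 0.44 SE, adjusted p = 0.0167, edgeR). Against sham blood it rose 14.97-fold (log2 3.90 ± 0.43 SE, adjusted p = 0.0101, edgeR). Between tMCAO blood and sham blood the log2 difference was -0.46 ± 0.39 SE (adjusted p = 0.455, edgeR), and scaling the libraries to T cell genes turned its sign, to 2.59. Against tMCAO blood the call ended without tMCAO blood library 2 (adjusted p = 0.0503) and without sham blood library 1 (0.0544) or 2 (0.0552), all in edgeR. It was also lost with only the 2 groups in the fit (0.0523) and after scaling to T cell genes (log2 5.43, adjusted p = 0.163). The call against sham blood was lost without either sham blood library (adjusted p = 0.104 each). Without tMCAO brain library 1 and tMCAO blood library 1, the log2 change of Osm in tMCAO brain was 4.15 against tMCAO blood and 3.44 against sham blood (edgeR).

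Lif, the gene of leukemia inhibitory factor, lies 16530 bases downstream of Osm on the same strand, from 4257557 to 4272514 on chromosome 11. It was near the counting limit, with 21 and 55 counts in tMCAO brain, 0 and 24 counts in tMCAO blood and no count in either sham blood library. That is 1.27 and 2.25 CPM in the brain libraries, against 0 and 1.20 CPM in blood after tMCAO, and the brain values lay above both blood values. With sham blood set at a limit of 3 counts over the group, Lif was 18.4-fold higher in tMCAO brain and 6.17-fold higher in tMCAO blood. The lower ends of the 95% intervals of counting error were 14.6-fold and 4.64-fold. All 24 counts of tMCAO blood came from its library 2. No comparison passed in edgeR, with an adjusted p of 0.576 between brain and blood after tMCAO, 0.203 between the blood groups and 0.129 between tMCAO brain and sham blood. Tests with other settings called Lif in 7 of 14 alternatives for tMCAO brain against sham blood and in 3 of 13 for tMCAO blood against sham blood.

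Il6, the gene of IL-6 (chromosome 5, from 30013114 to 30019981, plus strand), was uneven within the blood groups. It had 254 and 488 counts in the brain libraries, against 310 and 0 counts in blood after tMCAO and 19 and 0 counts in blood after sham surgery. In CPM these were 15.4 and 19.9 in brain, whereas blood had 16.7 and 0 after tMCAO and 1.22 and 0 after sham surgery. Both brain libraries were above both sham blood libraries, while tMCAO blood library 1 lay between the brain libraries and tMCAO blood library 2 held no Il6 count, which allows up to 0.149 CPM. Summed over libraries and relative to depth, Il6 counts were 28.4 times as high in tMCAO brain as in sham blood (95% interval of counting error 18.0 to 47.4). With the spread between libraries the adjusted p was 0.230 (edgeR, log2 4.82 ± 2.37 SE). The adjusted p was 0.752 between brain and blood after tMCAO and 0.315 between the blood groups (edgeR). The difference between the blood groups turned its sign without tMCAO blood library 1, from which all Il6 counts of its group came. Without tMCAO brain library 1 and tMCAO blood library 1, the log2 change of Il6 was 4.98 in tMCAO brain against sham blood (edgeR). Against tMCAO blood the fitted change is then no size, since the remaining tMCAO blood library held no Il6 count.

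Among the receptor genes, Osmr was close to absent from all but 1 library. Osmr (chromosome 15, from 6813577 to 6874969, minus strand) had 0 and 118 counts in the brain libraries, against 0 and 2 counts in blood after tMCAO and 5 and 0 counts in blood after sham surgery. Its highest level was 4.82 CPM, in tMCAO brain library 2, and tMCAO brain library 1, with no count, allows up to 0.182 CPM. Osmr was above 5 counts in 1 of the 6 libraries, tMCAO brain library 2, which held Osm as well. With no filter on low counts, edgeR gave Osmr a log2 change of 5.41 ± 1.57 SE in tMCAO brain against tMCAO blood (adjusted p = 0.00801 over 31242 genes). This value rests on that 1 brain library.

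Il6ra encodes the chain that binds IL-6 (chromosome 3, from 89864059 to 89913196, minus strand; it shares 281 bases with the antisense gene Gm42809). Its level was 48.6 and 25.4 CPM in brain, whereas blood had 103 and 111 CPM after tMCAO and 80.7 and 72.7 CPM after sham surgery. Both brain libraries were below all blood libraries, and both tMCAO blood libraries were above both sham blood libraries. Of all tested genes, 25.9% had brain below blood after tMCAO in this way, 29.7% had brain below sham blood and 33.6% had tMCAO blood above sham blood. The mean was 37.0 ± 16.5 CPM in the brain libraries, against 107 ± 5.21 CPM in blood after tMCAO and 76.7 ± 5.65 CPM in blood after sham surgery (SD, n = 2 each). Between brain and blood after tMCAO the log2 difference was -1.53 ± 0.36 SE, a level 2.89-fold lower. Scaling to T cell genes left -0.23 (adjusted p = 0.979). With TMM scaling the unadjusted p was 0.00486, and the adjusted p of 0.0632 missed the threshold in edgeR. DESeq2 (adjusted p = 0.00352) and limma-voom (0.0405) called it. Without tMCAO brain library 1 and tMCAO blood library 1 the log2 difference of Il6ra between brain and blood after tMCAO was -2.19 (edgeR). Against sham blood the log2 difference of tMCAO brain was -1.05 ± 0.36 SE (adjusted p = 0.107, edgeR), and its sign turned on scaling to T cell genes, to 3.10.

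Il6st, the gene of gp130, lies on chromosome 13 from 112464070 to 112510086, plus strand. It was at 43.8 and 78.1 CPM in brain, whereas blood had 38.7 and 39.6 CPM after tMCAO and 63.0 and 68.4 CPM after sham surgery. The brain libraries enclosed the sham blood values and lay above both tMCAO blood libraries. No comparison of Il6st passed in edgeR. Its log2 difference was 0.64 ± 0.33 SE between brain and blood after tMCAO (adjusted p = 0.258, edgeR). Between tMCAO blood and sham blood it was -0.75 ± 0.33 SE (adjusted p = 0.190, edgeR), and the sign turned on scaling to T cell genes, to 2.13. Between tMCAO brain and sham blood it was -0.11 ± 0.33 SE (adjusted p = 0.863, edgeR), and the sign turned likewise, to 3.52. The ratio of Il6ra to Il6st within a library was chosen after the values were seen. Per kilobase of exon it was 1.43 and 0.417 in the brain libraries, against 3.43 and 3.58 in blood after tMCAO and 1.64 and 1.37 in blood after sham surgery. Both tMCAO blood libraries held the most IL-6-binding chain per gp130 of the 6 libraries, and the brain libraries overlapped with sham blood.

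Stat3, the transcription factor that carries the signal, lies on chromosome 11 from 100885098 to 100939540, minus strand, and shares 72 bases with Stat5a. It was at 217 and 277 CPM in brain, whereas blood had 138 and 114 CPM after tMCAO and 150 and 184 CPM after sham surgery. The groups did not overlap in any of the 3 comparisons, with tMCAO brain highest and tMCAO blood lowest. Such separation is common here: 31.4% of all tested genes had both tMCAO brain libraries above both tMCAO blood libraries. Both tMCAO blood libraries were below both sham blood libraries in 30.4%, and 34.9% had both tMCAO brain libraries above both sham blood libraries. In edgeR the log2 difference of Stat3 was 0.97 ± 0.29 SE between brain and blood after tMCAO (adjusted p = 0.0964). Between tMCAO blood and sham blood it was -0.41 ± 0.29 SE (adjusted p = 0.385), and the sign turned on scaling to T cell genes, to 2.57. Between tMCAO brain and sham blood it was 0.57 ± 0.29 SE (adjusted p = 0.248). DESeq2 called the first of these (adjusted p = 0.0144).

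Socs3, the feedback inhibitor, lies on chromosome 11 from 117966079 to 117970047, minus strand. It had 1505 and 3294 counts in the brain libraries, against 335 and 219 counts in blood after tMCAO and 495 and 1063 counts in blood after sham surgery. These were 91.1 and 135 CPM in brain, whereas blood had 18.0 and 10.9 CPM after tMCAO and 31.8 and 74.8 CPM after sham surgery. The 3 groups did not overlap, and the sham blood libraries lay further apart than those of the other groups in relative terms. Of all tested genes, 31.4% had brain above tMCAO blood in this way, 34.9% had brain above sham blood and 30.4% had tMCAO blood below sham blood. Socs3 rose 7.79-fold in tMCAO brain against tMCAO blood (log2 2.96 ± 0.52 SE, adjusted p = 0.0372, edgeR). The call was lost without any single library (adjusted p from 0.0677 to 0.106), with only the 2 groups in the fit (0.0621) and on scaling to T cell genes (log2 3.57, adjusted p = 0.420). Without tMCAO brain library 1 and tMCAO blood library 1 together, the log2 change of Socs3 was 3.555 (edgeR).

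Socs3 in tMCAO blood stood at a log2 difference of -1.88 ± 0.50 SE to sham blood, a level 3.68-fold lower, and the sign turned on scaling to T cell genes, to 1.23. The unadjusted p was 0.00901 and the adjusted p 0.0702 in edgeR. DESeq2 called it (adjusted p = 0.00598). Without tMCAO brain library 1 and tMCAO blood library 1 the log2 difference of Socs3 between the blood groups was -2.24 (edgeR). Between tMCAO brain and sham blood the log2 difference of Socs3 was 1.08 ± 0.49 SE (adjusted p = 0.198, edgeR). Scaling to T cell genes set the median log2 change of all genes at 1.08 between brain and blood after tMCAO, 2.94 between tMCAO blood and sham blood and 3.95 between tMCAO brain and sham blood. Relative to that median, the sign of each of the 7 genes was the same with both scalings in all 3 comparisons. A change of scaling shifts the genes of a comparison together, though not by the same amount. In tMCAO brain against tMCAO blood the relative value of Il6 went from 1.02 with TMM to 0.147 with T cell scaling. That of Lif went from 1.48 to 2.66. The sameness of sign was still largely fixed in advance and does not decide between the scalings. For Socs3 this relative log2 difference in tMCAO blood against sham blood was -1.71 with T cell scaling and -1.99 with TMM.

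**Figure D2:**
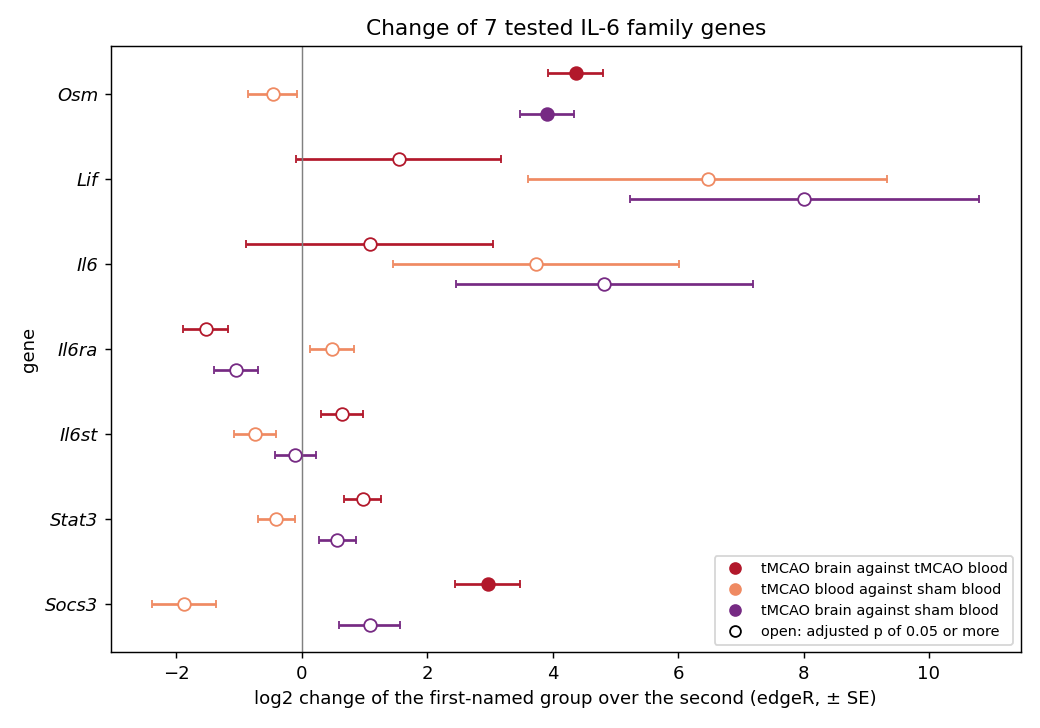
Log2 change (edgeR, bars ± SE) of the 7 tested genes, with 3 points per gene in the order of the legend from top to bottom; filled points passed an adjusted p of 0.05. Filled points are Osm in both comparisons of tMCAO brain and Socs3 in tMCAO brain against tMCAO blood; Lif had no count in sham blood, so its fitted changes against sham blood are no sizes, and on scaling to T cell genes the sign turned for Osm, Il6st, Stat3 and Socs3 in tMCAO blood against sham blood and for Il6ra and Il6st in tMCAO brain against sham blood.

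The order of the levels within a group changed with the group. In CPM per kilobase of exon, tMCAO brain held Osm at 109.8 ± 41.5 CPM per kb, Socs3 at 39.0 ± 10.6 and Stat3 at 25.9 ± 4.43 (SD, n = 2, as below). There followed Il6 at 7.27 ± 1.33, Il6st at 5.49 ± 2.19, Il6ra at 4.28 ± 1.90, Lif at 0.404 ± 0.159 and Osmr at 0.199 ± 0.281. In tMCAO blood the order was Stat3 at 13.2 ± 1.74 CPM per kb, Il6ra at 12.4 ± 0.603, Osm at 5.31 ± 1.40, Socs3 at 5.01 ± 1.74, Il6st at 3.53 ± 0.0611, Il6 at 3.44 ± 4.86, Lif at 0.137 ± 0.194 and Osmr at 0.00411 ± 0.00582. In sham blood it was Socs3 at 18.4 ± 10.52 CPM per kb, Stat3 at 17.5 ± 2.51, Il6ra at 8.87 ± 0.654, Osm at 7.33 ± 1.82, Il6st at 5.92 ± 0.342, Il6 at 0.251 ± 0.355, Osmr at 0.0132 ± 0.0187 and Lif at 0. Osm led in tMCAO brain, Stat3 in tMCAO blood and Socs3 in sham blood. Neighbours in these orders stood apart beyond their SDs only for Osm over Socs3, Stat3 over Il6 and Il6ra over Lif in tMCAO brain, for Il6ra over Osm in tMCAO blood, and for Stat3 over Il6ra and Il6st over Il6 in sham blood.

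Ratios within a library do not depend on scaling between libraries, and the following were chosen after the values were seen. Osm per Stat3, per kilobase, was 6.11 and 2.77 in the brain libraries, against 0.437 and 0.361 in blood after tMCAO and 0.548 and 0.313 in blood after sham surgery. Socs3 per Stat3 was 1.38 and 1.60 in brain, whereas blood had 0.432 and 0.315 after tMCAO and 0.699 and 1.34 after sham surgery. Both ratios were higher in both brain libraries than in all 4 blood libraries, by a wide gap for Osm and a narrow one to sham blood library 2 for Socs3.

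Among the genes whose log2 CPM followed Osm most closely over the 6 libraries, of 7547 genes, were Impact (Pearson r = 0.992), Abcg1 (0.992), Atp6v0d2 (0.992) and Syngr1 (0.991). Syngr1 was at 427 and 290.2 CPM in the brain libraries, against 1.56 and 0.598 CPM in blood after tMCAO and 3.92 and 3.10 CPM in blood after sham surgery. For Socs3 they were Cul2 (0.996), Braf (0.994), Mars1 (0.992), Hps1 (0.986) and Rhot1 (0.986). The 2 sets shared no gene. Cul2 was at 58.3 and 79.3 CPM in brain, whereas blood had 24.98 and 17.5 CPM after tMCAO and 36.9 and 56.5 CPM after sham surgery, the group order of Socs3. These are descriptions over 6 libraries that share depth and cell makeup, with no test.

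Microglia genes as a list were, like Osm and Socs3, higher in brain than in blood. Between the 2 blood groups the list's share was higher after tMCAO and the mean CPM of Osm and Socs3 was lower. Osm overlapped between these groups, and the signs of Osm and Socs3 turned on scaling to T cell genes. The genes of the list went both ways, and P2ry12, given below, was lower in CPM after tMCAO. The 14 microglia genes held 1.02% and 1.06% of counts in the brain libraries, against 0.0723% and 0.0802% in blood after tMCAO and 0.0318% and 0.0410% in blood after sham surgery. Of them 11 passed as higher in tMCAO brain against tMCAO blood and 14 against sham blood, with none lower, and in tMCAO blood against sham blood 2 were higher and 2 lower. None of the 14 was at 0 in a brain library, 3 and 2 were at 0 in the tMCAO blood libraries and 3 and 1 in the sham blood libraries. P2ry12, a purine receptor that marks microglia, was at 431 and 523 CPM in brain, whereas blood had 15.8 and 26.4 CPM after tMCAO and 57.3 and 75.4 CPM after sham surgery. Tmem119, another microglial marker, was at 150.2 and 188 CPM in the brain libraries, against 9.64 and 1.94 CPM in blood after tMCAO and 0.257 and 2.46 CPM in blood after sham surgery. The part of microglial RNA in the levels of Osm and Socs3 was not tested.

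Markers of myeloid cells were also present in all groups. The 16 monocyte and macrophage genes held 3.49% and 1.48% of counts in brain, whereas blood had 3.497% and 1.42% after tMCAO and 0.747% and 0.594% after sham surgery, and none was at 0 in any library. Between brain and blood after tMCAO edgeR called 0 of the 16 as higher and 4 as lower, with 10 below an unadjusted p of 0.05 (4 higher, 6 lower). DESeq2 called 4 higher and 6 lower, limma-voom 3 higher and 5 lower, and edgeR scaled to T cell genes 0. The 4 that fell, named after their values were seen, were Chil3 (log2 -7.22, adjusted p = 0.0381), Fn1 (-4.66, 0.0348), Lyz1 (-3.45, 0.0270) and Plac8 (-2.71, 0.03997), in edgeR. Lyz1 has a near copy, Lyz2, and its value is uncertain for that reason. Each of these 4 calls was lost without either sham blood library, those of Fn1, Lyz1 and Plac8 also without either brain library, and those of Chil3 and Plac8 without either tMCAO blood library. Without tMCAO blood library 1 the log2 change was -3.22 for Fn1 and -2.68 for Lyz1, and without tMCAO brain library 1 that of Chil3 was -10.06. Against sham blood, 7 of the 16 were higher in tMCAO brain and 6 in tMCAO blood. The 10 neutrophil genes held 0.171% and 0.0237% in the brain libraries, against 0.0295% and 0.776% in blood after tMCAO and 0.00135% and 0.00178% in blood after sham surgery. S100a8, a calgranulin of neutrophils, stood at 952 and 50.4 CPM in brain, whereas blood had 199 and 3466 CPM after tMCAO and 0.0642 and 0.704 CPM after sham surgery. Of these 10 genes, 1 and 4 were at 0 in the tMCAO brain libraries, 1 and 0 in the tMCAO blood libraries, and 6 and 8 in the sham blood libraries. The part of monocyte, macrophage and neutrophil RNA in the levels of Osm and Socs3 was not tested. The 9 dendritic cell genes held 0.0697% and 0.143% in the brain libraries, against 0.00447% and 0.0108% in blood after tMCAO and 0.0539% and 0.0712% in blood after sham surgery. Of the 9 none was at 0 in a brain library. Socs3 shared this order of group means, as did P2ry12 and lists of B cell genes and of mast cell and basophil genes. In these last lists the high brain mean rested on tMCAO brain library 2. The part of dendritic cell, B cell and mast cell RNA in the levels of Osm and Socs3 was not tested.

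Of the marker lists, red cell genes differed most between groups in their share of counts. The 7 red cell genes, mainly those of haemoglobin, held 8.06e-05% and 0% of counts in brain, whereas blood had 0.107% and 3.80% after tMCAO and 15.07% and 16.4% after sham surgery. Of the 7, 4 and 7 were at 0 in the tMCAO brain libraries, 1 and 0 in the tMCAO blood libraries, and none in sham blood. In edgeR 3 passed as lower in tMCAO brain than in tMCAO blood and 6 as lower than in sham blood. Between the blood groups edgeR called 0, with 2 below an unadjusted p of 0.05, 3 called by DESeq2 and 2 by limma-voom. The part of red cell RNA in the differences from sham blood was not tested.

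**Figure D3:**
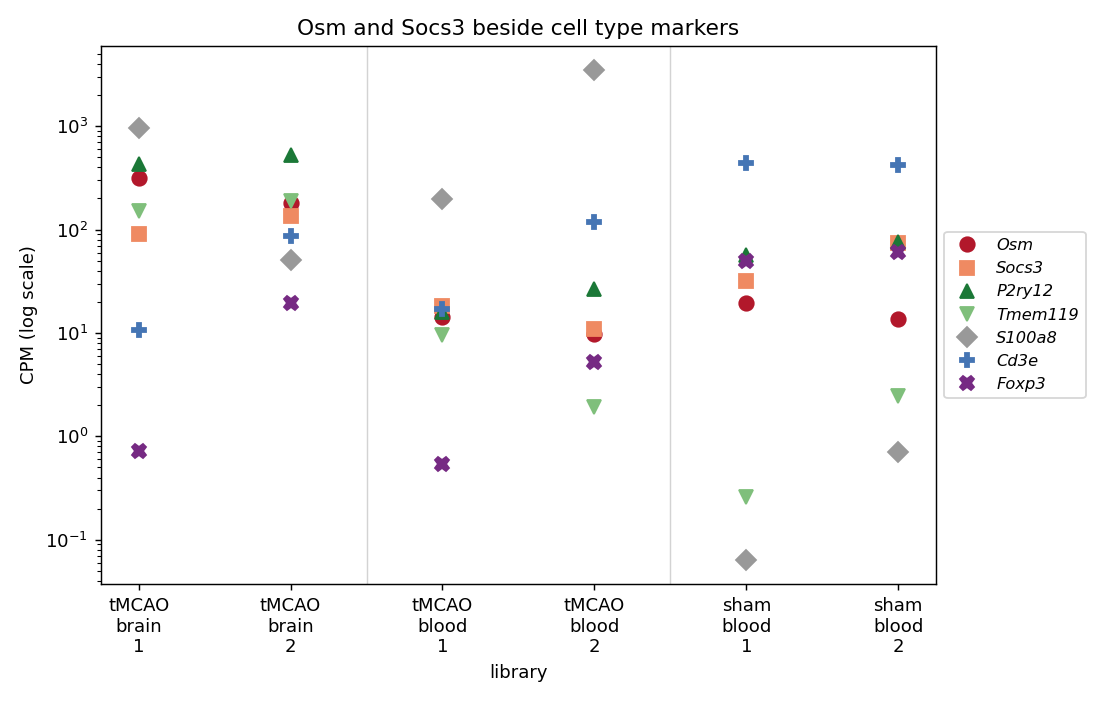
CPM of Osm and Socs3 beside the markers P2ry12 and Tmem119 (microglia), S100a8 (neutrophils), Cd3e (T cells) and Foxp3 (Tregs) in each of the 6 libraries, on a log scale. Osm, P2ry12 and Tmem119 are highest in both tMCAO brain libraries, and S100a8 is highest in tMCAO blood library 2, at 3466 CPM.

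Other genes of the pathway were taken from lists chosen for their roles. Together these held 6 called genes between brain and blood after tMCAO, 7 between the blood groups and 18 between tMCAO brain and sham blood. Of all genes tested, 4.9%, 7.48% and 10.6% were called in that order, and the size of each list is given below. Counts without tMCAO brain library 1 and tMCAO blood library 1 rest on the spread of the 2 sham blood libraries alone and are not given. Of 9 further ligand genes of the family 5 were tested, and 1 passed, as higher, in each comparison of tMCAO brain. Between the blood groups edgeR called 0, with 2 below an unadjusted p of 0.05, 1 called by DESeq2 and 0 by limma-voom. The 1 gene was Ebi3, which encodes the subunit that IL-27 and IL-35 share (chromosome 17, from 55952640 to 55957022; the antisense gene Gm16712 overlaps it). Ebi3 was at 49.1 and 32.1 CPM in brain, whereas blood had 9.04 and 7.62 CPM after tMCAO and 15.1 and 14.0 CPM after sham surgery, with both brain libraries above all blood libraries. It rose 4.87-fold in tMCAO brain against tMCAO blood (log2 2.28 ± 0.34 SE, adjusted p = 0.0286, edgeR) and 2.79-fold against sham blood (log2 1.48 ± 0.33 SE, adjusted p = 0.0429). With only the 2 groups in the fit, or on scaling to T cell genes (log2 3.395, adjusted p = 0.422, edgeR), the first was not called. The first call was lost without any single library (adjusted p from 0.0553 to 0.0938) and the second without either tMCAO brain library (0.164 and 0.0524) or either sham blood library (0.213 and 0.234). Clcf1, a ligand of the ciliary neurotrophic factor receptor, was at 3.45 and 17.0 CPM in the brain libraries, against 3.07 and 13.5 CPM in blood after tMCAO and 19.4 and 33.1 CPM in blood after sham surgery. It passed in no comparison by edgeR, and with no filter on low counts it passed in tMCAO blood against sham blood (adjusted p = 0.0144).

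Receptor and shedding genes other than Osmr, Il6ra and Il6st numbered 8, of which 6 were tested. In edgeR 2 were called higher in tMCAO blood against sham blood and 3 in tMCAO brain against sham blood, with none called lower. DESeq2 called 3 higher and 1 lower in the first of these, and 3 higher and 2 lower in the second. By limma-voom these were 1 and 0 in the first, and 2 and 1 in the second. Between brain and blood after tMCAO edgeR called 0, with 3 below an unadjusted p of 0.05, 3 called by DESeq2 and 1 by limma-voom. Lifr, the receptor chain for leukemia inhibitory factor, was at 76.0 and 29.9 CPM in brain, whereas blood had 156 and 59.2 CPM after tMCAO and 4.43 and 3.59 CPM after sham surgery. It rose 26.8-fold in tMCAO blood (log2 4.74 ± 0.70 SE, adjusted p = 0.0313) and 13.2-fold in tMCAO brain (log2 3.72 ± 0.67 SE, adjusted p = 0.0256) against sham blood, in edgeR. These calls were lost without either sham blood library, the first also without tMCAO blood library 1 (log2 3.88, adjusted p = 0.0836) and the second without tMCAO brain library 1 (log2 2.88, adjusted p = 0.0691). Lifr thus differed from Osmr, the other chain through which oncostatin M family ligands pair with gp130, in being counted in all 6 libraries.

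Il11ra1, the interleukin 11 receptor chain, was at 26.6 and 25.9 CPM in the brain libraries, against 14.1 and 9.97 CPM in blood after tMCAO and 2.95 and 2.53 CPM in blood after sham surgery. Galt and Dctn3 are among the genes that overlap it. Il11ra1 rose 9.55-fold in tMCAO brain (adjusted p = 0.0117) and 4.37-fold in tMCAO blood (adjusted p = 0.0358, edgeR) against sham blood. Both calls were lost without either sham blood library and the second without tMCAO blood library 1 (0.0961). Adam17, the protease that sheds the IL-6 receptor, was at 199.95 and 136 CPM in brain, whereas blood had 92.9 and 64.9 CPM after tMCAO and 52.7 and 54.2 CPM after sham surgery, with no overlap between groups. It rose 3.15-fold in tMCAO brain against sham blood (log2 1.65 ± 0.32 SE, adjusted p = 0.0313, edgeR). Leaving out tMCAO brain library 1 (0.105) or either sham blood library (0.193 and 0.198) ended that call. Adam10, a related protease, was at 124 and 147 CPM in the brain libraries, against 301 and 172 CPM in blood after tMCAO and 98.3 and 84.9 CPM in blood after sham surgery. It passed in no comparison by edgeR, whereas DESeq2, edgeR with no filter and 3 other settings of 15 called it as higher in tMCAO blood against sham blood (adjusted p from 0.00494 to 0.345 over all 15).

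The kinases and STAT factors carry the signal from receptor to nucleus. Of 6 kinases and STAT factors other than Stat3, edgeR called 0 in each comparison. Below an unadjusted p of 0.05 were 0 between brain and blood after tMCAO, 3 between the blood groups and 3 between tMCAO brain and sham blood. In the same order DESeq2 called 0, 2 and 3, and limma-voom 0 in each. Jak1, the main kinase on gp130, was at 318 and 380.1 CPM in brain, whereas blood had 309.7 and 358 CPM after tMCAO and 648 and 599.9 CPM after sham surgery. Of 12 further feedback genes and inhibitors 0 passed in edgeR in any comparison, with 3, 7 and 3 below an unadjusted p of 0.05 in the same order, 3, 4 and 2 called by DESeq2 and 0, 1 and 0 by limma-voom. Ptpn6, the phosphatase SHP-1, was at 539 and 391 CPM in brain, whereas blood had 304 and 255 CPM after tMCAO and 201 and 256 CPM after sham surgery. Pias1, an inhibitor of STAT signalling, was at 188 and 138 CPM in the brain libraries, against 84.0 and 69.9 CPM in blood after tMCAO and 139 and 158 CPM in blood after sham surgery. Among 13 feedback genes tested, with Socs3 included, Socs3 was the one called.

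All 30 genes of a list of known STAT3 targets were tested. In tMCAO brain 4 were higher and 1 lower than in tMCAO blood, and 13 higher and 1 lower than in sham blood. In tMCAO blood 4 were higher and 1 lower than in sham blood. These are counts by edgeR, and they moved with the tool and the scaling. Of all genes tested, edgeR called 3.53% higher and 1.37% lower between brain and blood after tMCAO. It called 8.01% and 2.62% between tMCAO brain and sham blood, and 4.33% and 3.15% between the blood groups. DESeq2 called 8 higher and 2 lower between brain and blood after tMCAO, 10 and 5 between the blood groups, and 18 and 3 between tMCAO brain and sham blood. In the same order limma-voom called 6 and 2, 3 and 3, and 9 and 1, and edgeR scaled to T cell genes 1 and 0, 10 and 0, and 25 and 0. With that scaling 8644 of all 16657 genes tested were called higher in tMCAO brain against sham blood. The targets' median log2 change was 0.89 between brain and blood after tMCAO, 0.83 between the blood groups and 2.31 between tMCAO brain and sham blood, beside 0.06, 0.11 and 0.09 over all genes. Many of these genes answer to other signals as well, such as NF-kappaB or growth factors. The 4 that rose in tMCAO brain against tMCAO blood were Tnfaip3, Junb, Icam1 and Pim3, and the 1 that fell was Cebpb. The 13 that rose against sham blood were Junb, Fos, Pim3, Bcl6, Vegfa, Icam1, Ccnd1, Cdkn1a, Lcn2, Il10, Tnfaip3, Nfil3 and Fgl2. The 1 that fell against sham blood was Batf, a factor of T cell differentiation, at 42.8 and 43.0 CPM in the brain libraries, against 103 and 145 CPM in blood after sham surgery (log2 -1.53 ± 0.29 SE, adjusted p = 0.0281, edgeR), with the sign turned on scaling to T cell genes, to 2.37. Batf was named after its value was seen, and its call was lost without either library of tMCAO brain or of sham blood.

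Tnfaip3, which encodes the NF-kappaB inhibitor A20, was at 441 and 784 CPM in brain, whereas blood had 22.9 and 26.0 CPM after tMCAO and 43.3 and 77.4 CPM after sham surgery. It rose 25.1-fold in tMCAO brain against tMCAO blood (log2 4.65 ± 0.49 SE, adjusted p = 0.0168, edgeR). Junb, an AP-1 subunit whose gene overlaps Prdx2, was at 1853 and 1463 CPM in the brain libraries, against 117 and 78.2 CPM in blood after tMCAO and 266 and 402 CPM in blood after sham surgery. It rose 17.0-fold in tMCAO brain against tMCAO blood (adjusted p = 0.0168). In CPM both had, like Socs3, their lowest levels in tMCAO blood, an order to sham blood that turned on scaling to T cell genes (log2 1.52 for Tnfaip3 and 1.29 for Junb). Icam1, an adhesion receptor, was at 236 and 290.4 CPM in brain, whereas blood had 9.85 and 3.39 CPM after tMCAO and 29.3 and 58.7 CPM after sham surgery. It rose 39.8-fold in tMCAO brain against tMCAO blood (adjusted p = 0.0223). Icam1 was the 1 target that fell in tMCAO blood against sham blood (log2 -2.73 ± 0.60 SE, adjusted p = 0.0495, edgeR), with the sign turned on scaling to T cell genes, to 0.56. That call was lost without any single library (adjusted p from 0.0623 to 0.265), with log2 changes from -3.70 to -2.15. Its log2 change in tMCAO brain against tMCAO blood was 5.31, and 6.28 without tMCAO blood library 1. Pim3, a survival kinase, was at 34.5 and 60.1 CPM in the brain libraries, against 8.34 and 4.78 CPM in blood after tMCAO and 9.56 and 9.64 CPM in blood after sham surgery. Its rise in tMCAO brain against tMCAO blood was 7.21-fold (adjusted p = 0.0308). The calls of Tnfaip3, Junb, Icam1 and Pim3 against tMCAO blood were each lost without either sham blood library. All 4 were also lost with only the 2 groups in the fit. On scaling to T cell genes they were lost too (adjusted p = 0.188, 0.304, 0.117 and 0.423 in that order, edgeR). That of Tnfaip3 was also lost without either tMCAO blood library (0.0534 and 0.0550), that of Icam1 without either brain library (0.0504 and 0.0559), and that of Pim3 without any single library (adjusted p from 0.0529 to 0.0834).

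In tMCAO blood the targets that rose against sham blood were Cebpb, Fgl2, Lcn2 and Cdkn1a. Cebpb, a myeloid transcription factor whose gene overlaps Tmem189, was at 19.5 and 22.2 CPM in brain, whereas blood had 168 and 79.9 CPM after tMCAO and 7.25 and 4.64 CPM after sham surgery. It rose 20.8-fold in tMCAO blood against sham blood (adjusted p = 0.0313) and was 5.93-fold lower in tMCAO brain than in tMCAO blood (adjusted p = 0.0350, edgeR), the reverse of Osm and Socs3. With only the 2 groups in the fit, or on scaling to T cell genes (log2 -1.928, adjusted p = 0.81, edgeR), Cebpb was not called between brain and blood after tMCAO. The second call was kept without tMCAO blood library 2 (0.0455) and lost without each other library. Without tMCAO blood library 1 the log2 changes of Cebpb were -1.94 in tMCAO brain against tMCAO blood and 3.74 in tMCAO blood against sham blood, beside -2.57 and 4.38 with all libraries. Lcn2, a neutrophil granule protein, was at 20.025 and 46.2 CPM in brain, whereas blood had 19.1 and 162 CPM after tMCAO and no count after sham surgery. With sham blood set at the limit of 3 counts over the group, Lcn2 was 354.0-fold higher in tMCAO brain (adjusted p = 0.0320, edgeR) and 924-fold higher in tMCAO blood (adjusted p = 0.0363, edgeR). The call in tMCAO brain was lost without either brain library (0.0692 and 0.0656) or either sham blood library. Fgl2, a secreted product of Tregs and macrophages whose gene overlaps Ccdc146, was at 114 and 117 CPM in the brain libraries, against 72.6 and 75.2 CPM in blood after tMCAO and 24.3 and 26.3 CPM in blood after sham surgery. Against sham blood it rose 4.58-fold in tMCAO brain (adjusted p = 0.0101) and 2.92-fold in tMCAO blood (adjusted p = 0.0313). On scaling to T cell genes Fgl2 was not called in tMCAO blood against sham blood (adjusted p = 0.0905, edgeR). Cdkn1a, the cell cycle inhibitor p21, was at 564 and 353 CPM in brain, whereas blood had 196 and 39.1 CPM after tMCAO and 7.19 and 9.01 CPM after sham surgery. It rose 56.6-fold in tMCAO brain (adjusted p = 0.0171) and 14.5-fold in tMCAO blood (adjusted p = 0.0443) against sham blood. The log2 change in tMCAO blood was 3.86, against 2.27 without tMCAO blood library 1 and 4.54 without tMCAO blood library 2. Against sham blood, the calls in tMCAO blood for these 4 genes were lost without tMCAO blood library 1 (adjusted p from 0.0665 to 0.0865), that of Cdkn1a without either brain library (0.0546 and 0.0559), and all 4, like those in tMCAO brain of Fgl2, Cdkn1a, Junb and Tnfaip3, without either sham blood library. The call of Junb in tMCAO brain was also lost without tMCAO brain library 1 (0.0753).

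**Figure D4:**
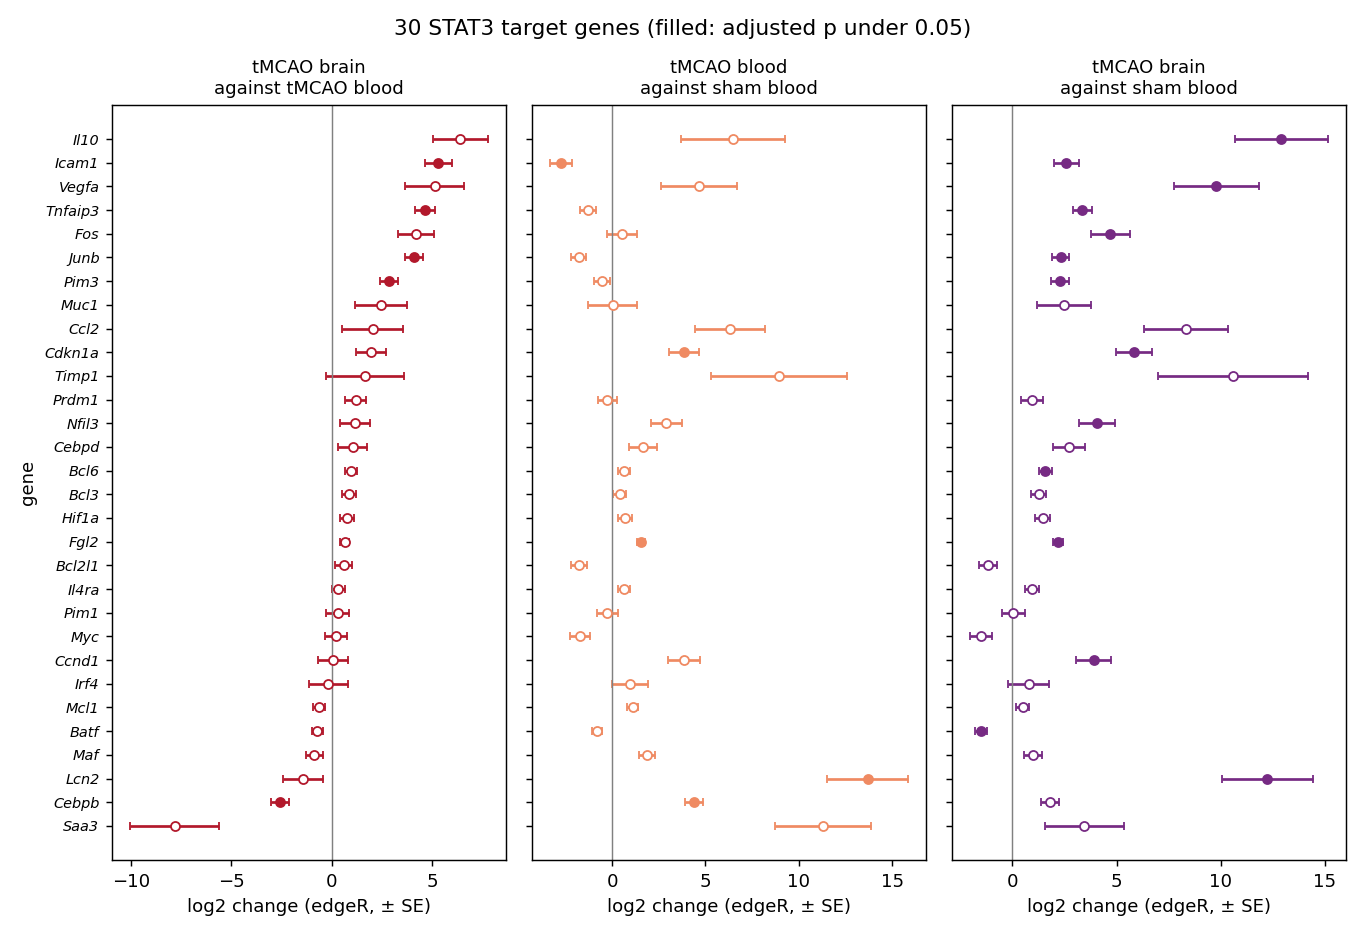
Log2 change (edgeR, bars ± SE) of the 30 STAT3 target genes in the 3 comparisons, 1 panel each, sorted by the left panel; filled points passed an adjusted p of 0.05. Filled points number 5, 5 and 14; Il10, Lcn2 and Timp1 had no count in sham blood, so their fitted changes against it are no sizes, and the filled point of Icam1 in the middle panel turned its sign on scaling to T cell genes.

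The genes of the Th17 programme, which IL-6 and STAT3 are known to induce, were mostly at low levels. Of 10 genes 6 were tested, and edgeR called 0 in each comparison. Below an unadjusted p of 0.05 were 2 between brain and blood after tMCAO, 1 between the blood groups and 1 between tMCAO brain and sham blood. DESeq2 called 2, 1 and 1 in that order, and limma-voom 0 in each. Rora was at 27.6 and 79.9 CPM in the brain libraries, against 23.7 and 104 CPM in blood after tMCAO and 86.8 and 49.7 CPM in blood after sham surgery. Ccr6, a homing receptor of Th17 cells, was at 4.96 and 11.9 CPM in brain, whereas blood had 1.02 and 8.02 CPM after tMCAO and 40.2 and 23.8 CPM after sham surgery. In tMCAO brain and in tMCAO blood alike, the library with the lower Foxp3 had the lower Rora and Ccr6. In sham blood it was the reverse: library 1, with the lower Foxp3, had the higher Rora and Ccr6.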

How the data were processed

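Libraries were made from lysed cells with a SMART-Seq low-input kit and Nextera XT tagmentation and sequenced as 75 bp paired ends, per the labels' protocols; neither step is stated to keep the strand, so reads of overlapping genes on opposite strands cannot be told apart. Whole-number counts per gene and library were deposited by the authors; STAR, HTSeq 0.11.2 and GRCm38 are named in the submitters' processing notes. All 6 columns of the table were mapped to libraries by the S or M initial (sham or tMCAO), tissue and number in their names.

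Counts were tested with edgeR 4.0.16 in R 4.3.3 (TMM factors, default filterByExpr with a minimum count of 10, quasi-likelihood test, all 6 libraries in 1 fit with 3 residual degrees of freedom), with p adjusted by Benjamini-Hochberg over all 16657 genes within each comparison and called under 0.05. SEs were derived from the log2 change and the F statistic. Alternatives were DESeq2 1.42.0 (size factors, Wald test), limma 3.58.1 (voom), no filter, at least 5 CPM in 2 libraries, only the 2 groups compared, a replicate block, scaling to the 16 T cell identity genes, and leaving out each library; leaving out tMCAO brain library 1 and tMCAO blood library 1 together was chosen after seeing the data. Leaving out a library kept the same genes, and a group with 1 library left was assumed to vary like the others. Without tMCAO brain library 1 and tMCAO blood library 1, only the 2 sham blood libraries were left to set the spread.

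Positions and exon lengths came from GENCODE M21 (97.16% of symbols matched, 8 of the 8 genes), promoters from RefSeq. Intervals of count ratios (95%) and limits at 0 (3 counts) cover counting error only. All 8 genes are named; from each pathway list up to 4 called genes per comparison by smallest adjusted p are named, or, with none called, the 2 most abundant, and for Osm and Socs3 the 5 genes of highest correlation among those with at least 20 CPM in the highest group. Some genes that these rules name are not reported here. The genes and lists were chosen with earlier results of these data known. The scripts were tested on simulated data.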

Additional observations from a re-analysis of the deposited data

How the results depend on the processing

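Over 21 log2 changes of the 7 tested genes and their alternatives, 301 of 311 values kept their direction, 32 gained a call and 15 lost one; the 45 values of the 3 called changes all kept it. In tMCAO brain against tMCAO blood the 2 called genes became 4 with no filter, 4 by DESeq2, and 0 with only these 2 groups or on scaling to T cell genes. In tMCAO blood against sham blood 0 became 3 with no filter, 1 by DESeq2 and 2 on scaling to T cell genes. In tMCAO brain against sham blood 1 became 6, 3 and 5 under the same settings and 2 with only these 2 groups. Calls over all genes rose in this comparison too, from 1772 to 4458 of 31242 genes with no filter. They rose to 4007 of 16657 by DESeq2 and to 8702 of 16657 on scaling to T cell genes. The gains are therefore not particular to these genes, and the counts over all genes for the other comparisons follow below. Leaving out 1 library gave fewer calls in the first comparison, none in the second, and fewer or more in the third. Leaving out tMCAO brain library 1 and tMCAO blood library 1 gave more in each, with the 2 sham blood libraries alone setting the spread. On scaling to T cell genes the sign turned in tMCAO blood against sham blood for Osm (2.59), Il6st (2.13), Stat3 (2.57) and Socs3 (1.23) and in tMCAO brain against sham blood for Il6ra (3.10) and Il6st (3.52). Without tMCAO blood library 1, Il6 turned to -6.51 in tMCAO blood against sham blood, and to -6.53 with tMCAO brain library 1 also left out, the remaining tMCAO blood library having 0 Il6 counts. Without tMCAO brain library 1, Il6st turned to 0.23 in tMCAO brain against sham blood, also with tMCAO blood library 1 left out (0.23). Beyond these, the cause was not tested.

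Calls over all genes were 816 (588 higher, 228 lower), 1246 (722 and 524) and 1772 (1335 and 437) in the order tMCAO brain against tMCAO blood, tMCAO blood against sham blood, tMCAO brain against sham blood. No filter gave 3598, 3611 and 4458, DESeq2 3469, 3789 and 4007, and leaving out 1 library 30 to 273, 0 to 1455 and 0 to 2407. In tMCAO brain against tMCAO blood, only the 2 groups gave 33, limma-voom 1446 and the stricter filter 1237. Scaling to T cell genes gave 423 (389 higher, 34 lower), 1500 (1497 and 3) and 8702 (8644 and 58), and limma-voom 524 higher and 622 lower in tMCAO blood against sham blood. Without the 2 libraries of low Foxp3 the counts rose in each comparison, with the spread set by the 2 sham blood libraries alone. With the replicate block the calls of the 7 genes were 2, 0 and 1. Deviations of same-numbered libraries correlated at 0.304 between tMCAO brain and tMCAO blood. The correlation was -0.0285 between tMCAO brain and sham blood and -0.0702 between tMCAO blood and sham blood. These values do not settle whether same-numbered libraries were paired. Leaving out 1 library at a time moved Il6 between -6.51 and 10.26 in tMCAO blood against sham blood and Il6st between -0.59 and 0.23 in tMCAO brain against sham blood. The 2 libraries per group limit what could pass.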

Other observations

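Genes of the Th17 programme were not alike in the libraries that counted them, and they are described here after their values were seen. Il17a had 0 and 220 counts in tMCAO brain, Il21 0 and 41 and Il23r, the receptor chain for interleukin 23, 17 and 181, all 3 with none in the blood libraries. Il17f had 1 and 51 counts in brain, whereas blood had 1 and 0 after tMCAO and 1 and 0 after sham surgery. Il1r1 had 20 and 494 counts in brain, whereas blood had 6 and 0 after tMCAO and 11 and 0 after sham surgery. Other genes of the list went otherwise: Rora, Ccr6 and Ahr were counted in all 6 libraries, Ccr6 with its highest levels in sham blood and Rora in tMCAO blood library 2, and Il22 had no count in any library. Library 2 of tMCAO brain held 118 Osmr counts and had 0.151% of its counts in T cell identity genes, against 0.0300% in tMCAO brain library 1. It also had 1.08% of its counts in 9 B cell genes, against 0.0197% in tMCAO brain library 1; the part of other cells in these counts was not tested.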
